A study of Mus musculus with 8 samples.

Results

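The proteasome is the large protease that degrades proteins tagged with ubiquitin. Its genes were measured in male and female mice in the genital tubercle, from which the penis or clitoris develops. The members were all genes that the platform annotation names Psma, Psmb, Psmc, Psmd, Psme, Psmf or Psmg with a number, on every probe set annotated to that gene alone. The rule gave 47 genes on 100 probe sets, of 45101 probe sets on the array. Psme2 was not analysed here because its probe set is annotated to another gene as well.

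The samples were 4 male and 4 female FVB/N samples at embryonic day 14 (Theiler stage 22), with no other allele or treatment named in the labels. The tubercle region was microdissected, samples were not pooled, and RNA amplified in 2 rounds was hybridized to 1 Affymetrix MOE430 array per sample. Such tissue holds many cell types, so fewer cells of a type and less RNA per cell cannot be told apart in any value below. Levels are the submitters' linear intensities, whose trimmed mean was the same on every array. A difference is the male minus the female mean of log2(intensity + 16), with the standard error (SE) of a limma fit over the whole array. On that scale the change of a dim gene is understated. A probe set counts as called at a Benjamini-Hochberg adjusted p under 0.05 among the 22519 probe sets bright enough to be tested.

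As background, the proteasome has a barrel-shaped core particle and a regulatory particle that caps it. The core is built of outer alpha rings, which gate the entrance, and inner beta rings, in which the subunits encoded by Psmb5, Psmb6 and Psmb7 carry the cutting sites. The regulatory particle has a base with a ring of ATPases, which unfold the substrate, and a lid, which removes its ubiquitin chains. Dedicated chaperones assemble the parts, and alternative caps and inducible beta subunits replace the standard ones in some cells. Proliferating embryonic tissue depends on this protease for the turnover of cyclins and of many signalling proteins.

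Several facts of the arrays stand beside every result. Tubercle genes were bright on the female and the male arrays, among them Shh (24550 ± 2826 in females and 18740 ± 2621 in males; mean ± SD, n = 4 per sex, as for all means below), Isl1 and Hoxd13. Of the 7 tubercle genes listed, 6 were tested, and these 3 were called lower in males. Wnt5a (-0.07), Tbx4 (-0.09) and Sall1 (-0.17) did not pass on their brightest probe sets, and 2 other Wnt5a probe sets were called higher. Over all genes tested, each on its brightest probe set, 28.2% were lower and 14% were higher. Hoxa13 lay below the brightness filter. Male replicate 3 read 16036 for Xist, the RNA of the inactive X chromosome, against 230.0 to 619.6 on the other male arrays and 32465 to 35816 on the female arrays, while its level of the Y-linked gene Eif2s3y (5571) lay among the male values. For 18S ribosomal RNA, the 3′ control probe set had 8332 to 18926 on the female arrays and 21050 to 33634 on the male arrays, and its other 2 control probe sets overlapped between the sexes. The ratio of the 3′ to the 5′ control probe set, a measure of RNA length, was 6.47 to 8.54 in females and 5.3 to 9.04 in males for Actb. For Gapdh it was higher, 14.4 to 21.2 in females and 12.6 to 16.3 in males. The labels name no litter, amplification day or hybridization day, so the p-values rest on a spread between samples that may be technical.

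Proteasome genes were more often lower than higher in the male tubercle. Of the 100 probe sets, 74 were bright enough to be tested, covering 43 of the 47 genes, and 40 of the 74 (54.1%) were called, where 40.5% of all probe sets tested on the array were called. Of these, 27 probe sets (36.5%) were lower in males, beside 21.9% of all probe sets, and 13 (17.6%) were higher in males, beside 18.7% of all. Male and female values were fully apart on 37 of the 74 probe sets (50%), and on 37.1% of all probe sets tested. The median difference was -0.17 over the 74 probe sets and -0.01 over all 22519.

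Taken as genes, each on its brightest tested probe set, 21 of 43 (48.8%) were lower in males, 5 (11.6%) were higher and 17 did not pass. Over the 11489 genes tested, 28.2% were lower and 14% were higher. The median difference was -0.21 over the 43 members and -0.12 over all genes. Over the whole array, bright probe sets were more often lower in males than dim ones, and most members were bright. When the probe sets tested were cut into 3 bands of equal size by brightness, 43 of the 74 members lay in the brightest, 20 of them lower and 6 higher. In that band, 29.2% of all probe sets were lower and 21.9% were higher. In the middle band, 5 of 17 members were lower and 4 higher, beside 26% and 17.9% of all. The dimmest band held 14 members, 2 lower and 3 higher, beside 10.4% and 16.2% of all. The median difference of the members was -0.19, 0.003 and -0.06 from the brightest band to the dimmest. Above the upper quartile of brightness, where 55 member probe sets were tested, 26 (47.3%) were lower and 10 (18.2%) were higher, beside 30.3% and 22% of all probe sets.

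**Figure D1:**
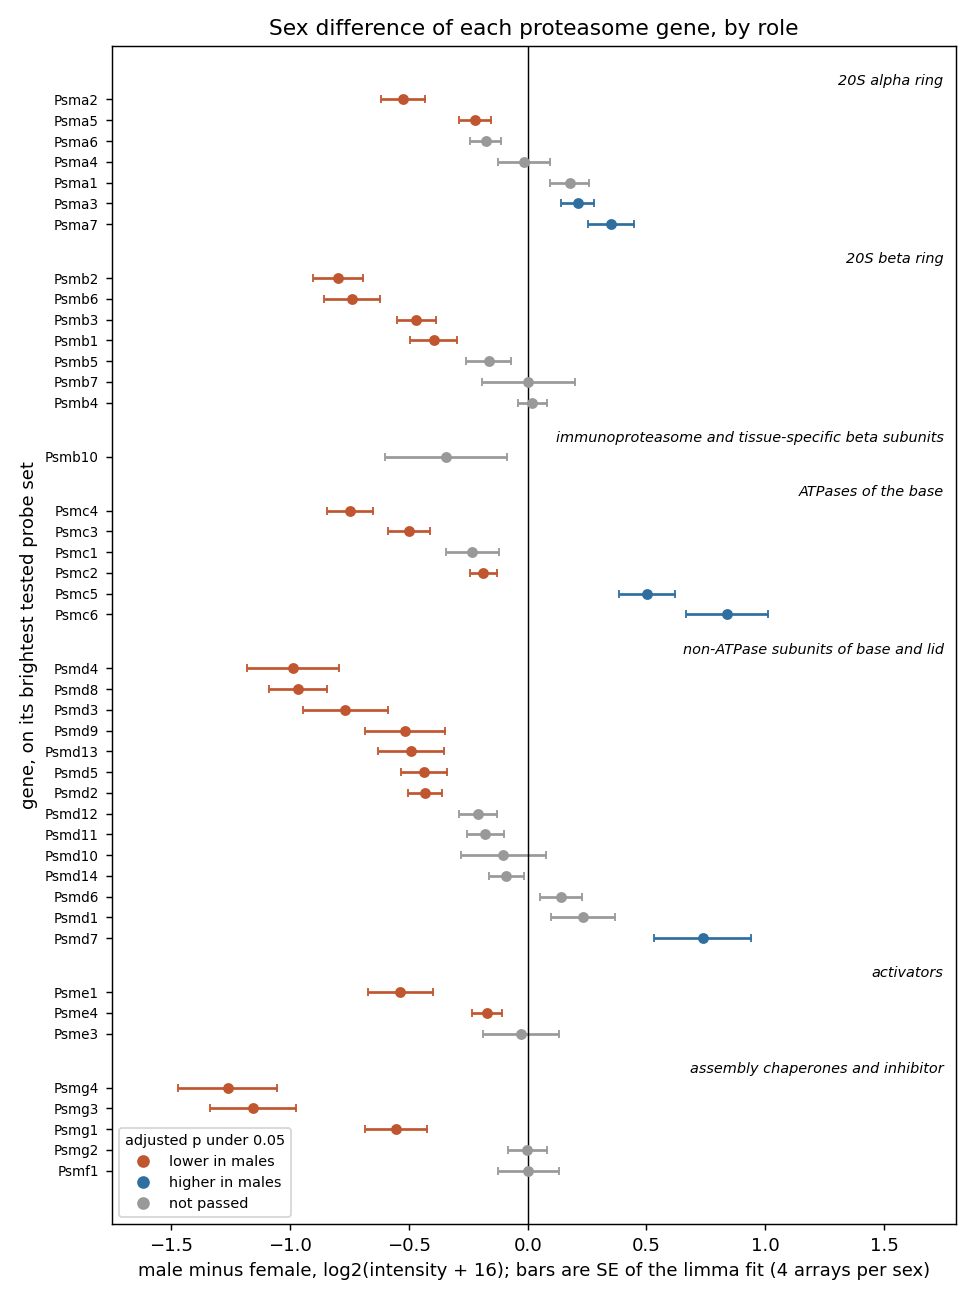
Male minus female difference on the log2(intensity + 16) scale for each of the 43 tested proteasome genes on its brightest probe set, grouped by role; bars are the SE of the limma fit with 4 arrays per sex, and colour marks the call. Psmg4 (-1.26) and Psmg3 (-1.16) lie farthest to the left and Psmc6 (0.84) farthest to the right.

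The calls depended on how the 18S control level was treated. With the mean log2 level of its 3 control probe sets as a covariate, 25 of the 40 calls held, 20 of them lower and 5 higher in males, and 21% of all probe sets were called. Taken as genes, 16 of the 26 calls held, and those of Psma3, Psma5, Psma7, Psmb1, Psmc2, Psmc5, Psmd7, Psmd9, Psmd13 and Psme4 were lost (limma adjusted p from 0.0576 for Psmc5 to 0.307 for Psme4). With the 3′ control alone as a covariate, whose levels did not overlap between the sexes, limma called 0 of the 74 member probe sets at an adjusted p under 0.05 and 23 at an unadjusted p under 0.05, 17 of them lower, and 1.84% of all probe sets were called. How much of each difference goes with the 18S level was not tested further. Leaving out 1 array at a time left 21 to 28 probe sets lower and 11 to 14 higher, and 30 of the 40 calls held without each array in turn. Without male replicate 3, 24 were lower and 13 higher.

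The members moved to differing extents on single arrays. The median over the 43 genes of the centred log2 level, the gene's level minus its mean over the 8 arrays, was 0.18, 0.07, 0.13 and 0.10 on the female arrays and -0.04, -0.18, -0.16 and -0.10 on the male arrays, replicates 1 to 4 in order. Over the 74 member probe sets it was 0.05 to 0.12 on the female arrays and -0.12 to -0.01 on the male arrays. Over all 22519 probe sets tested it stayed between -0.03 and 0.04. For all genes on their brightest probe set it was not taken per array. The median difference of those genes was -0.12, beside -0.21 for the 43 members. All female arrays thus lay above all male arrays for the members' median, and male replicate 1 lay nearest to the females. Among the 21 genes lower in males, male replicate 1 was the highest male array for 12. Female replicate 1 was the highest of all 8 arrays for 17 of the 43 genes.

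**Figure D2:**
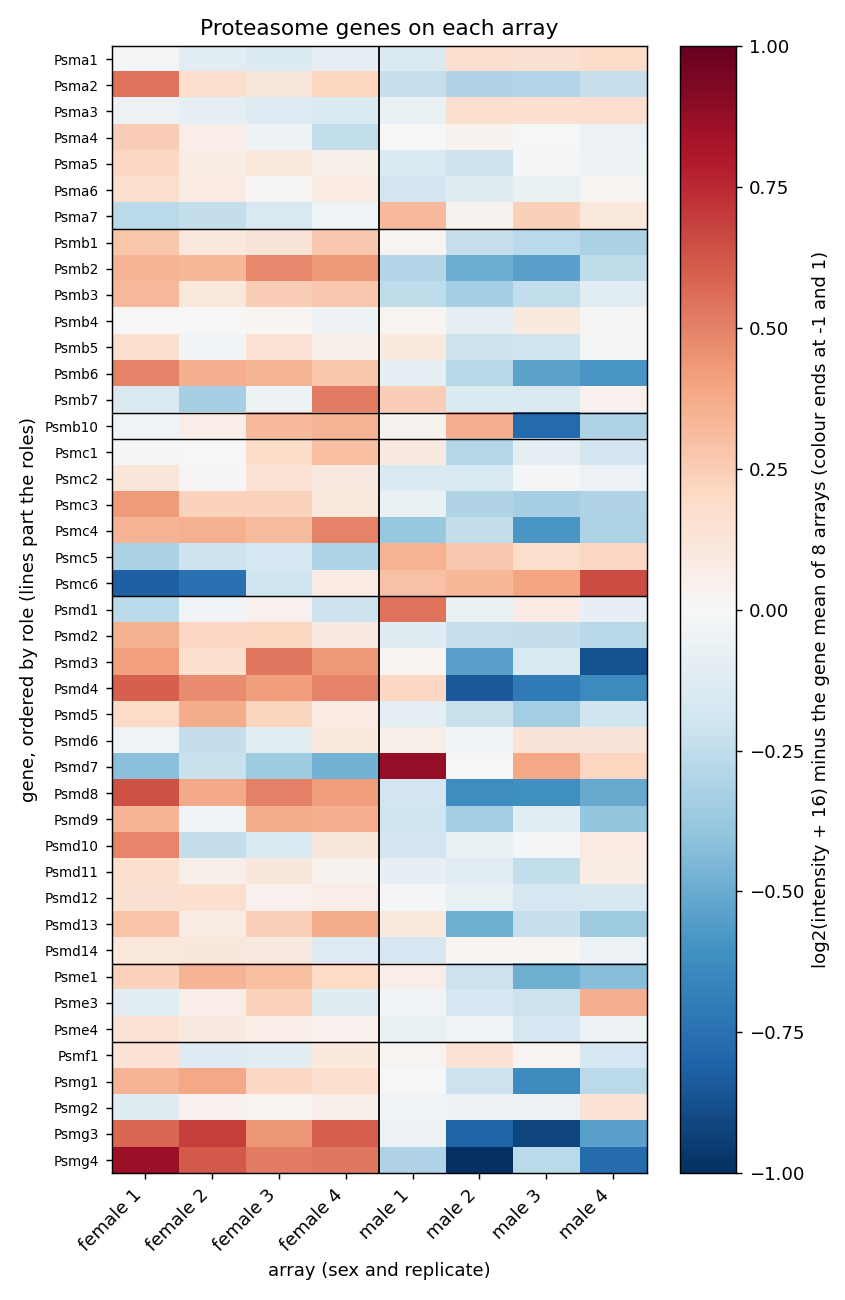
Centred log2(intensity + 16) of the 43 tested genes (rows, by role) on the 8 arrays (columns, female left and male right of the line); red is above and blue below the gene's own mean, with colours ending at -1 and 1. Psmg4, Psmg3 and Psmd8 turn from red to blue across the line, and Psmc5 turns the other way. Psmd4 and Psmc6 do so with 1 exception each, since Psmd4 lies above its mean on male replicate 1 and Psmc6 slightly above its mean on female replicate 4. Psmb4 stays pale on every array.

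Promoter sequence was set beside these differences because proteasome genes are known to share control elements. RefSeq windows of 250 bases before to 50 after the start site (GRCm38.p6) were at hand for 39 of the 47 genes, 41 windows in all. The core of the antioxidant response element, TGACNNNGC, is the site at which the transcription factors Nfe2l1 and Nfe2l2 are known to bind in proteasome promoters. On either strand it was found in 6 of the 41 windows (14.6%), those of Psmb5, Psmb6, Psmc6, Psmd9, Psmd12 and Psme4, and in 12.4% of all 32851 windows of the reference table. Of the genes with a window, it was present in 3 of 17 lower in males, 1 of 4 higher in males and 2 of 15 that did not pass. The sequence CCAAT was in 34.1% of the member windows and 37.4% of all, GGGCGG in 53.7% and 35.7%, and TATAAA in 9.76% and 13.6%. The matches of different motifs overlapped at 1 place in the member windows. A match of letters is a description of the sequence and says nothing of binding.

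The windows of 5 members are shown because they span the pattern: the catalytic genes Psmb5 and Psmb6 both hold the TGACNNNGC core and differed in their call, Psmc6 and Psmc4 encode ATPases of 1 ring and differed in opposite directions, and Psmg4 was the member with the largest difference. Each is written 5′ to 3′ on the gene's own strand, and capitals mark matches of TGACNNNGC or CCAAT on either strand. Psmb5 lies at chr14:54617946-54618245, minus strand, Psmb6 at chr11:70525107-70525406, plus strand, Psmc6 at chr14:45329574-45329873, plus strand, Psmc4 at chr7:28050043-28050342, minus strand and Psmg4 at chr13:34162714-34163013, plus strand, all in GRCm38.p6.
Psmb5: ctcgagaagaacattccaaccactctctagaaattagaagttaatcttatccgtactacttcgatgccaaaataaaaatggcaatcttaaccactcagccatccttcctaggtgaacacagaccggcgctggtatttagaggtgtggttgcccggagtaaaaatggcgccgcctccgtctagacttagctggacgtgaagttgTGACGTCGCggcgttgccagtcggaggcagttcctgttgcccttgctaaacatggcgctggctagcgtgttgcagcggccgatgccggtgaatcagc
Psmb6: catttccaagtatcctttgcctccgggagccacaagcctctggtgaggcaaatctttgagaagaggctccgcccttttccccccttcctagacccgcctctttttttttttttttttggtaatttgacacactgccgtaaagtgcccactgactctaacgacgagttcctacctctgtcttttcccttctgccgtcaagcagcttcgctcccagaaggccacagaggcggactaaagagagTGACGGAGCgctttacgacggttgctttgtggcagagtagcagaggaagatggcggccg
Psmc6: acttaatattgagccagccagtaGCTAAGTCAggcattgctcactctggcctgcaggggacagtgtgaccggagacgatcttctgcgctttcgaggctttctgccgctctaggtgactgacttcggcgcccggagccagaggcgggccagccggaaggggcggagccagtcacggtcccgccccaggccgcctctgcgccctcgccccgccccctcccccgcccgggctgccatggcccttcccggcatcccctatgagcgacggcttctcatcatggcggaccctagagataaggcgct
Psmc4: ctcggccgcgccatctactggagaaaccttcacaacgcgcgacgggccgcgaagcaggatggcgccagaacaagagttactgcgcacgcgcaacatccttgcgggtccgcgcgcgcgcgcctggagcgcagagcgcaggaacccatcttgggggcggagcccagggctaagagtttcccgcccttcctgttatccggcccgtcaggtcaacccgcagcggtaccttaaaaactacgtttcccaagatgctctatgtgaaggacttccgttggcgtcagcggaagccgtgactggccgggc
Psmg4: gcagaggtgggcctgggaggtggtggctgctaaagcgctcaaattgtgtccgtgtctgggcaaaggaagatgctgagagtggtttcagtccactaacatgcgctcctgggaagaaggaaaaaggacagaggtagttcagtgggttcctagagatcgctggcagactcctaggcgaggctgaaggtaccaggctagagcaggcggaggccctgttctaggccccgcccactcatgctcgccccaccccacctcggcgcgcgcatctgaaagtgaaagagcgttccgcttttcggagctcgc
The core starts 47 bases before the start site in Psmb5, 9 before in Psmb6 and 227 before in Psmc6. The windows of Psmc4 and Psmg4 hold no capitals, so neither of these letter patterns occurs in them.

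In the beta ring of the core, 4 of 7 genes (57.1%) were lower in males, 0 were higher and 3 did not pass. Over all genes tested, 28.2% were lower and 14% were higher. The median difference of the ring was -0.40. The 3 catalytic genes were split. Psmb6, which encodes the caspase-like site, read 9684, 8852, 8687 and 8321 on the female arrays and 6453, 5674, 4737 and 4582 on the male arrays. Every male array lay below every female array, with means of 8886 ± 576 in females and 5361 ± 873 in males and a difference of -0.74 ± 0.12 (limma adjusted p = 0.000549). Psmb5, which encodes the chymotrypsin-like site, read 8616, 7562, 8496 and 7950.1 on the female arrays and 8229, 6644, 6712 and 7613 on the male arrays. Male replicate 1 lay inside the female range, and the difference of -0.16 ± 0.10 did not pass (limma adjusted p = 0.19). Psmb7, which encodes the trypsin-like site, read 704, 615, 752 and 1126 on the female arrays and 926, 706, 704 and 803 on the male arrays. Its sexes overlapped (0.00 ± 0.20, limma adjusted p = 0.992), with female replicate 4 the highest array. Log2 ratios of 2 probe sets on the same array are given here and below for pairs chosen after their differences were seen, so they describe the arrays and add no support. Psmb6 to Psmb5 was 0.12 ± 0.09 (SD) in females and -0.45 ± 0.22 in males, with no overlap. Psmb6 to Psmb7 was 3.48 ± 0.43 and 2.74 ± 0.20, and the sexes overlapped.

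The other beta subunits have no cutting site and help to build the ring. Psmb2 read 5420.1, 5386, 5977 and 5776 on the female arrays and 3479.5, 3016, 2923 and 3571 on the male arrays, a difference of -0.80 ± 0.10 (limma adjusted p = 0.000205), the largest of the ring. Psmb3 was lower in males on both of its probe sets, with differences of -0.47 ± 0.08 on the brighter (12430 ± 784 in females and 8987 ± 618 in males) and -0.76 ± 0.13 on the other. The brightest Psmb1 probe set differed by -0.40 ± 0.10 (limma adjusted p = 0.0076), a call lost with the mean 18S level as a covariate (-0.39, limma adjusted p = 0.0626). Its other 2 probe sets differed by -0.20 and -0.39 and did not pass. Psmb4 had 23850 ± 497 in females and 24210 ± 1325 in males and did not pass (0.02 ± 0.06), and its second probe set did not pass either (0.12).

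In the alpha ring, differences went both ways: 2 of 7 tested genes were lower in males, 2 were higher and 3 did not pass. The share lower (28.6%) was near that of all genes tested (28.2%), and the share higher was 28.6% beside 14%. The median was -0.01, and -0.12 over all genes. Psma2 read 19530.0, 15144, 14528 and 15563 on the female arrays and 11414, 10866, 10956 and 11422 on the male arrays. The male arrays lay close together below all female arrays, of which replicate 1 was the highest (-0.53 ± 0.09, limma adjusted p = 0.00108). Psma5 was lower on both tested probe sets, with differences of -0.22 ± 0.07 on the brighter and -0.84 ± 0.14 on the other, and the call of the brighter ended without female replicate 1 (limma adjusted p = 0.0621) or male replicate 2 (limma adjusted p = 0.0583).

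Psma7 went the other way and read 5414, 5509.6, 5853 and 6332 on the female arrays and 8163, 6677, 7695 and 7008 on the male arrays. All male arrays lay above all female arrays, by 0.35 ± 0.10 (limma adjusted p = 0.0127). That call was lost with the mean 18S level as a covariate (0.30, limma adjusted p = 0.132) and without male replicates 1 and 3 (0.25, limma adjusted p = 0.086). Its second probe set differed by 0.37, a call that ended without female replicate 1 (limma adjusted p = 0.0689). The log2 ratio of Psma7 to Psma2 within arrays was -1.48 ± 0.26 (SD) in females and -0.60 ± 0.12 in males, without overlap. Psma3 was also called higher in males (0.21 ± 0.07), but male replicate 1 lay within the female range and 6 of the 8 arrays each ended the call when left out (limma adjusted p up to 0.079, for male replicate 4). Psma1, Psma4 and Psma6 did not pass on their brightest probe sets, with differences of 0.18, -0.01 and -0.18. The dimmer Psma6 probe sets had the opposite sign (0.12, 0.30 and 0.51) and did not pass either. On a dimmer Psma1 probe set the male arrays were higher (0.75 ± 0.18, limma adjusted p = 0.00597), which was lost with the same covariate (limma adjusted p = 0.0926). Psma8, the alpha subunit of the testis, lay below the filter with 63.6 to 179.7 in females and 71.3 to 211.7 in males, and the germ cell markers Ddx4, Dazl and Sycp3 lay below it too.

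The inducible and tissue-specific beta subunits were dim in both sexes. Immunoproteasome subunits replace the catalytic ones under interferon and in immune cells. Of its genes, Psmb8 read 31, 25.5, 7.52 and 48.1 on the female arrays and 11.3, 42.9, 81.3 and 8.21 on the male arrays on its brightest probe set and Psmb9 read 312, 229, 148 and 145 on the female arrays and 219, 167, 188 and 242 on the male arrays. The sexes overlapped for both, and neither probe set was bright enough to be tested. Psmb10 was tested and read 237, 256, 308 and 313 on the female arrays and 251, 317, 135 and 194 on the male arrays, a difference of -0.34 ± 0.26 that did not pass (limma adjusted p = 0.303). Psmb11, which is known from the thymic cortex, stayed between 16.2 and 102.5 on the 8 arrays. Of 13 leukocyte markers, 8 were tested, 2 were higher in males (Csf1r and Mrc1) and 1 was lower (Cd68), beside 14% and 28.2% of all genes tested. Their summed level was 5015 to 6032 in females and 7077 to 8237 in males. Aif1, C1qa, C1qb, C1qc and Cd14 lay below the filter.

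The ATPases of the base differed in both directions, from -0.75 to 0.84. These 6 related proteins form 1 ring, and 3 of their genes were lower in males, 2 were higher and Psmc1 did not pass (-0.23 ± 0.11). That is 50% lower and 33.3% higher, beside 28.2% and 14% of all genes tested. Psmc4 read 8704, 8796, 8574 and 9704 on the female arrays and 5303, 5838, 4606 and 5569.6 on the male arrays. All male arrays lay below all female arrays (-0.75 ± 0.10, limma adjusted p = 0.000189), and the second Psmc4 probe set fell by 0.98 ± 0.13 (limma adjusted p = 0.000192). Psmc3 read 19805, 17295, 17215 and 15865 on the female arrays and 14029, 11962, 11659 and 11966 on the male arrays, a difference of -0.50 ± 0.09 (limma adjusted p = 0.00107), with male replicate 1 the highest male array. The brighter Psmc2 probe set differed by -0.19 ± 0.06 and the other by -0.49 ± 0.09. Leaving out 1 of 3 arrays ended the first of these calls (limma adjusted p up to 0.0705, for female replicate 3).

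Psmc6 rose in males on all 3 of its probe sets. The brightest read 7662, 8051, 11712 and 14287 on the female arrays and 16556, 16977, 17705 and 21229.6 on the male arrays. Its female arrays spread widely, but all lay below the males (0.84 ± 0.17, limma adjusted p = 0.00273). The other Psmc6 probe sets differed by 0.48 ± 0.08 (limma adjusted p = 0.000957) and 1.07 ± 0.18 (limma adjusted p = 0.00072), also without overlap. Psmc5 read 1356, 1459, 1498 and 1363 on the female arrays and 2159.5, 2042, 1913 and 1951 on the male arrays, a difference of 0.50 ± 0.12 (limma adjusted p = 0.00551). Set against Psmc4 on the same array, the log2 ratio of Psmc6 was 0.17 ± 0.38 (SD) in females and 1.76 ± 0.20 in males, and that of Psmc5 was -2.64 ± 0.14 and -1.39 ± 0.13. Neither ratio overlapped between the sexes, which restates the opposite calls of the genes paired. With the mean 18S level as a covariate Psmc6 and Psmc4 kept their calls (0.95 and -0.68), and Psmc5 did not (0.48, limma adjusted p = 0.0576).

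**Figure D3:**
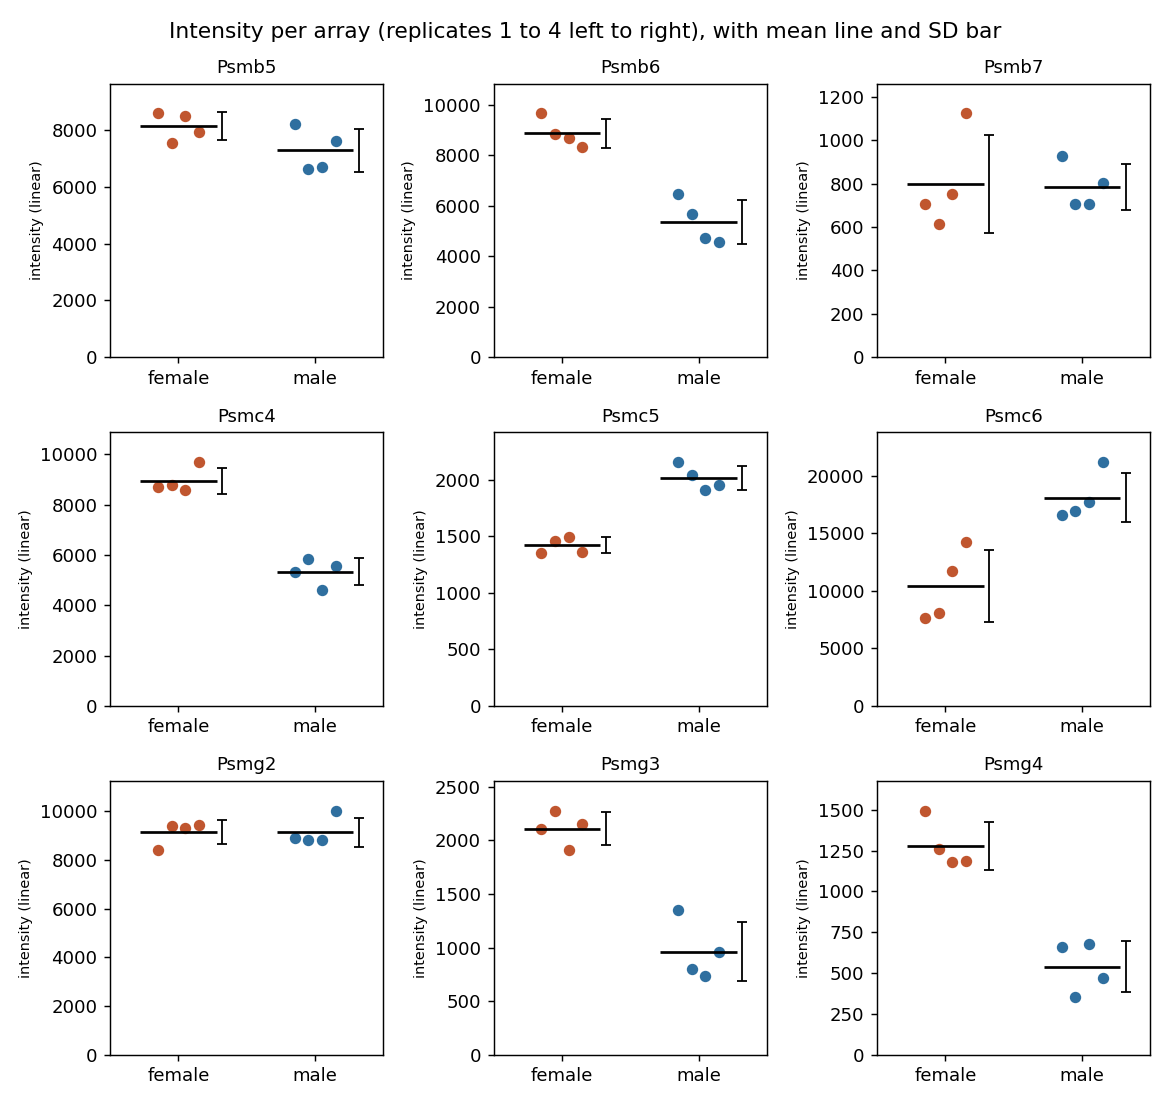
Linear intensity on each of the 8 arrays for the 3 catalytic beta genes (top), 3 ATPase genes (middle) and 3 assembly chaperone genes (bottom); points are replicates 1 to 4 from left to right, lines are means and bars at the side are SD, and each axis starts at 0. The sexes are apart for Psmb6, Psmc4, Psmc5, Psmc6, Psmg3 and Psmg4 and overlap for Psmb5, Psmb7 and Psmg2.

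The 14 Psmd genes were counted together as non-ATPase genes of the base and lid. They include Psmd5, Psmd9 and Psmd10, which encode chaperones of base assembly. Of the 14, 7 were lower in males, 1 was higher and 6 did not pass. That is 50% lower and 7.14% higher, beside 28.2% and 14% of all genes tested. The median was -0.32. Psmd4, which encodes a receptor for ubiquitin chains, read 4521, 4137, 3981 and 4212 on the female arrays and 3448, 1656, 1821 and 1917 on the male arrays. Male replicate 1 stood between the other male arrays and the females, and the difference was -0.99 ± 0.19 (limma adjusted p = 0.00202). A dimmer Psmd4 probe set did not pass (-0.24). Psmd8, a lid subunit, read 5666, 4746, 5169 and 4884 on the female arrays and 3184, 2361, 2381 and 2565 on the male arrays. Its difference of -0.97 ± 0.12 (limma adjusted p = 0.000167) was close to that of Psmd4, with no overlap. Psmd3, another lid subunit, read 3753, 3175, 4067 and 3817 on the female arrays and 2877, 1936, 2542 and 1536 on the male arrays, a difference of -0.77 ± 0.18 (limma adjusted p = 0.00537) with the male arrays widely spread.

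Psmd2, a scaffold of the base that docks ubiquitin-binding proteins, had 23160 ± 1784 in females and 17120 ± 806 in males (-0.43 ± 0.07, limma adjusted p = 0.00075). Psmd13 of the lid differed by -0.49 ± 0.14 (limma adjusted p = 0.0148), with male replicate 1 inside the female range. Psmd5 and Psmd9, which encode chaperones of base assembly, differed by -0.44 ± 0.10 and -0.52 ± 0.17. For Psmd9, 5 arrays each ended the call when left out (limma adjusted p up to 0.0762, for female replicate 3). Another base chaperone gene, the X-linked Psmd10, did not pass (-0.10 ± 0.18).

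Psmd14 and Psmd7 form the deubiquitinating pair of the lid. Psmd14, the metalloprotease that cuts off ubiquitin chains, read 29976, 30031, 29689 and 25412 on the female arrays and 24710.5, 28346, 28285 and 26749 on the male arrays, a difference of -0.09 ± 0.07 that did not pass (limma adjusted p = 0.346). Psmd7, its partner subunit, read 352, 407, 369 and 338 on the female arrays and 888, 475, 628 and 555 on the male arrays. Every male array lay above every female array and male replicate 1 was the highest (0.74 ± 0.20, limma adjusted p = 0.0132). The log2 ratio of Psmd4 to Psmd14 was -2.77 ± 0.14 (SD) in females and -3.66 ± 0.56 in males, with overlap. The Psmd7 call was lost with the mean 18S level as a covariate (0.53, limma adjusted p = 0.168) and without male replicates 1 and 3 (0.47, limma adjusted p = 0.0885). Psmd1, Psmd6, Psmd11 and Psmd12 did not pass on their brightest probe sets, with differences from -0.21 to 0.23, while a dimmer probe set of Psmd6 (0.31) and one of Psmd11 (0.71) were called higher in males. Those calls were weak: leaving out female replicate 3 ended the first (limma adjusted p = 0.0524) and leaving out male replicate 3 the second (limma adjusted p = 0.0513).

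Of the 3 genes of the alternative caps, 2 were lower in males, 0 were higher and 1 did not pass, beside 28.2% lower and 14% higher of all genes tested. Psme1, a subunit of the interferon-induced cap, read 2885, 3111, 3028 and 2817 on the female arrays and 2564, 2114, 1741 and 1820.3 on the male arrays. All male arrays lay below the females (-0.54 ± 0.14, limma adjusted p = 0.00838). Psme3, which encodes a nuclear cap, had 1444 ± 171 in females and 1426 ± 280.2 in males and did not pass (-0.03 ± 0.16). Psme4, a large single-chain activator known from acetylated histones and sperm development, gave opposite answers on its probe sets. The brightest read 19733, 19055, 18783 and 18425 on the female arrays and 16965, 17326, 15947 and 17266 on the male arrays and was called slightly lower (-0.17 ± 0.06, limma adjusted p = 0.0452), a call lost on leaving out each of 6 arrays (limma adjusted p up to 0.119, for female replicate 1) and in the fit with the replicate number as a block (limma adjusted p = 0.0705).

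A dimmer Psme4 probe set read 1244, 1558, 1471 and 1270.1 on the female arrays and 3126, 2563, 2682 and 2238 on the male arrays. It was higher in males (0.93 ± 0.14, limma adjusted p = 0.000454), as was another (1.16 ± 0.24, limma adjusted p = 0.00286), and the sexes did not overlap on either. Psme4 was thus the 1 member called in both directions, of 8 members with more than 1 called probe set (12.5%), beside 371 of 1512 genes of the array (24.5%). Opposite signs, called or not, were present in 6 of the 18 members with more than 1 tested probe set (33.3%), and in 47.8% of such genes over the array. These probe sets give no single direction for Psme4.

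**Figure D4:**
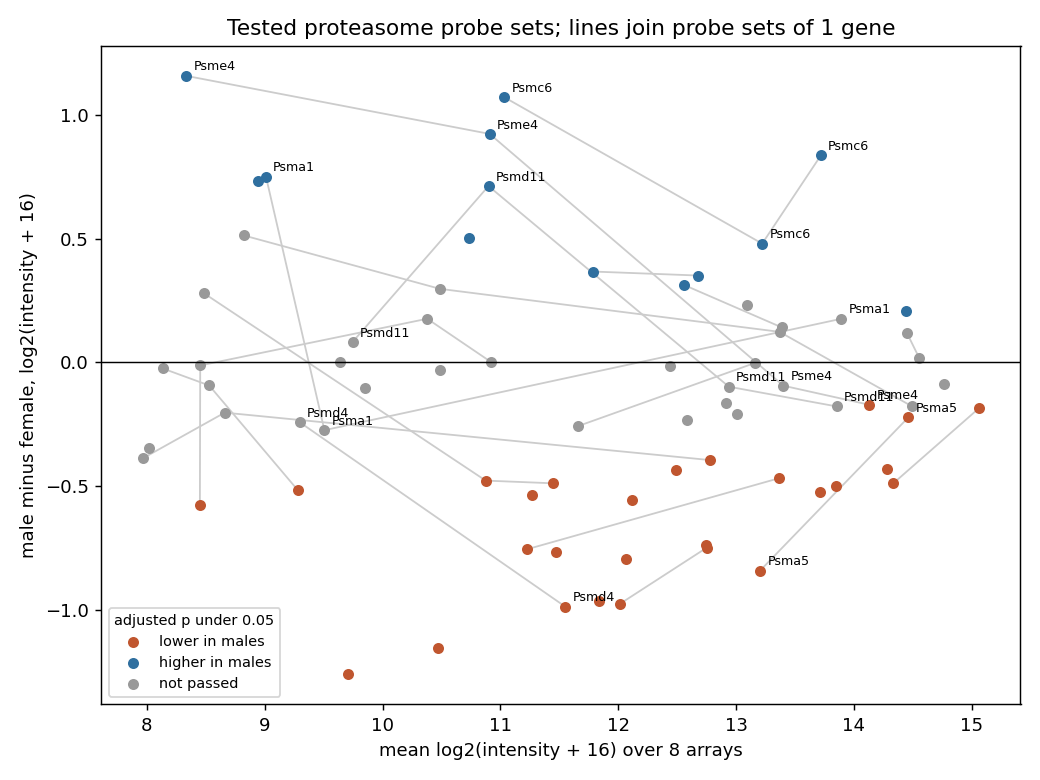
Male minus female difference against mean log2(intensity + 16) over the 8 arrays for the 74 tested proteasome probe sets; lines join probe sets of 1 gene and colour marks the call. The 3 Psmc6 probe sets stay above 0 and those of Psma5 below it, while Psme4 runs from 1.16 on its dimmest tested probe set to -0.17 on its brightest.

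Among the 43 genes on their brightest probe sets, Psmg4 and Psmg3, which encode chaperones of core assembly, had the largest differences. Of the 5 genes of these chaperones and the core's inhibitor, 3 were lower in males, 0 were higher and 2 did not pass. Over all genes tested, 28.2% were lower and 14% were higher. Psmg1 and Psmg2 pair to start the alpha ring, and Psmg3 and Psmg4 form a second pair that helps to order it. Psmg4 read 1496, 1259, 1179 and 1187 on the female arrays and 659.9, 351, 676 and 472 on the male arrays. Every male array lay below the lowest female array (-1.26 ± 0.21, limma adjusted p = 0.000755). Psmg3 read 2103, 2278, 1911 and 2151 on the female arrays and 1353, 799, 738 and 960.1 on the male arrays, a difference of -1.16 ± 0.18 (limma adjusted p = 0.00055) with male replicate 1 nearest to the females. A Psmg3 probe set below the filter read 12.7 to 88.1 in females and 120.7 to 311.6 in males, the opposite order, and was not tested.

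The first pair was split. Psmg1 read 5626, 5798, 5132 and 4995 on the female arrays and 4411, 3835, 2869.6 and 3682 on the male arrays, without overlap (-0.56 ± 0.13, limma adjusted p = 0.00548). Psmg2 read 8411, 9401, 9334 and 9457 on the female arrays and 8905, 8814, 8813 and 10036 on the male arrays and did not pass (-0.002 ± 0.08, limma adjusted p = 0.988). Set against Psmg2 on the same array, the log2 ratio was -2.83 ± 0.24 (SD) in females and -4.09 ± 0.46 in males for Psmg4 and -2.11 ± 0.13 and -3.26 ± 0.38 for Psmg3, both without overlap. Psmf1 encodes an inhibitor of the core, and its brightest probe set did not pass (1922 ± 188 in females and 1926 ± 171 in males; 0.00 ± 0.13). One of its 3 dimmer probe sets was called lower in males (-0.58, limma adjusted p = 0.0409), which 6 arrays each ended when left out (limma adjusted p up to 0.106, for female replicate 4).

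Other factors of assembly were read from a fixed list. Of 5 genes, 2 were lower in males, 0 were higher and 3 did not pass, beside 28.2% lower and 14% higher of all genes tested. Pomp, the maturation protein that helps to join the core from its precursors, read 4979.9, 3702, 4154 and 4809 on the female arrays and 2523, 2066, 2166 and 2232 on the male arrays. Its male arrays lay below all female arrays (-0.96 ± 0.12, limma adjusted p = 0.000199). Ipo9, an importin, differed by -0.54 ± 0.09 on its brightest probe set (limma adjusted p = 0.000986). Another Ipo9 probe set was called higher in males, so its probe sets give no single direction. Sem1, a small lid subunit, differed by -0.20 ± 0.11 and did not pass.

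The transcriptional regulators of proteasome genes were read from another list of 7 genes. Of these, 2 were higher in males, 0 were lower and 5 did not pass, with a median of -0.26. Over all genes tested, 14% were higher and 28.2% were lower. Nfe2l1, the transcription factor that raises proteasome genes when the protease is short, had 4161 ± 546 in females and 3281 ± 461 in males, and its difference of -0.34 ± 0.13 did not pass (limma adjusted p = 0.0589). It passed under 4 alternatives, among them array weights (limma adjusted p = 0.0227). Nfe2l2, its relative in the oxidative stress response, rose from 1711 ± 193.5 in females to 2998 ± 322.4 in males (0.80 ± 0.13, limma adjusted p = 0.000636). Ngly1, the deglycosylating enzyme that activates Nfe2l1, also rose (0.49 ± 0.13, limma adjusted p = 0.0122), and lost its call with the mean 18S level as a covariate (limma adjusted p = 0.0833). The other genes did not pass, with Keap1, which restrains Nfe2l2, at -0.26 ± 0.18, and the small Maf partners Maff at -0.29 ± 0.28, Mafg at -0.43 ± 0.22 and Mafk at -0.12 ± 0.22.

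Genes for proteins that bring substrates to the proteasome or trim their ubiquitin were partly higher in males. Of 10 tested genes 4 were higher, 1 was lower and 5 did not pass. Beside this and the other counts of this paragraph stand 14% higher and 28.2% lower over all genes tested. Ubqln1, counted among the 4 higher, had another probe set called lower, and Txnl1, which did not pass, had another called higher. Both deubiquitinases of the list that dock on the regulatory particle rose: Uchl5 read 2253, 1809, 1885 and 1730.3 on the female arrays and 2753, 3224, 3289 and 4101 on the male arrays (0.79 ± 0.14, limma adjusted p = 0.00126), and Usp14 had 7021 ± 1039 in females and 10510 ± 1831 in males (0.57 ± 0.14, limma adjusted p = 0.00715) with overlapping ranges. Of 10 genes of the Vcp segregase, which pulls substrates out of complexes, 4 were lower, 2 were higher and 4 did not pass, with the cofactors Nsfl1c at -1.12 ± 0.22 and Nploc4 at -0.60 ± 0.12. Faf1 and Ubxn4, counted among the 4 lower, each had another probe set called higher. Vcp itself did not pass on its brightest probe set (-0.01 ± 0.13). Both Vcp and Ubxn7, which did not pass either, had another probe set called higher. In the COP9 signalosome, a complex related to the lid, 5 of 9 genes were lower, 0 were higher and 4 did not pass, with Gps1 at -0.65 ± 0.10 and Cops6 at -0.56 ± 0.09. Cops7b, which did not pass, had another probe set called lower.

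Of 9 tested genes of class I antigen processing, which uses peptides cut by the proteasome, 2 were higher in males, 0 were lower and 7 did not pass. Over all genes tested, 14% were higher and 28.2% were lower. The chaperone gene Pdia3 differed by 1.28 ± 0.21 and the trimming peptidase Erap1 by 0.82 ± 0.24, whose call ended with the mean 18S level as a covariate (limma adjusted p = 0.214). Tap1, Tap2 and Nlrc5 lay below the filter. The single tested gene for ubiquitin activation, Uba6, did not pass (0.03 ± 0.10).

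Markers of other cell types moved with sex in the same samples. Their counts stand beside 14% higher and 28.2% lower in males over all genes tested. Of 7 tested skeletal muscle markers 6 were higher in males, with a summed level of 3739 to 9128 in females and 12010 to 18960 in males for all 8 (Ckm below the filter). Of 5 tested neuronal markers 4 were higher and 1 lower (Gap43), with 8311 to 9843 and 11330 to 14560 (Tubb3 below the filter). Of 4 tested endothelial markers 3 were higher (Kdr, Tek and Pecam1) and 1 lower (Cdh5, -0.57), with 6233 to 7549 and 8075 to 10120 (Tie1 below the filter). Of 5 epithelial markers 1 was higher (Trp63, 0.48) and 2 lower (Krt5, -0.75, and Krt14, -0.92), with 41830 to 50010 and 44690 to 48760. Of 4 tested red cell markers 1 was higher (Hbb-y) and 1 lower (Hba-x, -1.09), while Alas2 and Epor did not pass (Hba-a1 below the filter). Another Hbb-y probe set was called lower in males. The red cell sum was 39000 to 42140 and 43780 to 53800, most of it Hbb-y (means 39050 in females and 46400 in males). The sums thus hide opposite moves of single markers. The part of these cell types in the proteasome differences was not tested.

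Of the 23 tested member probe sets whose annotated target sequence is a RefSeq transcript, 13 were lower in males and 2 were higher, with a median of -0.43. Over the 3413 such probe sets of the array, 32.1% were lower and 12.1% higher, with a median of -0.16. Of the 51 with another target sequence, 14 were lower and 11 were higher, with a median of -0.09, beside 20% lower and 19.9% higher over the array. The array as a whole thus showed the same order of these classes. A suffix for probes that may match more than 1 transcript was carried by 29 of the 74, of which 10 were lower and 5 higher, beside 29.5% and 15.1% over the array. Among the other 45, 17 were lower and 8 were higher, beside 19.1% and 20%. The genes were spread over 16 chromosomes, with Psmd10 alone on the X.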

How the data were processed

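RNA of 4 male and 4 female samples was read on 1 array each. The authors deposited linear intensity values per probe set, made with GCOS per the submitters' processing notes, without a stated version. Trimmed means were 1499.6 on every array, so values were not normalized again. After removal of 64 controls, values became log2(value + 16), and those probe sets whose mean reached 7.77, the median, were tested with limma 3.58.1 (R 4.3.3; lmFit, eBayes with trend, sex as the only term, Benjamini-Hochberg over 22519). The number of arrays limits precision. Genes come from the platform annotation, probe sets with 1 gene only, and all 47 members matched RefSeq by gene ID. Lists, members and the naming rule were chosen with earlier results of these data known. The rule named up to 4 called members per role by size of difference, a fixed set of members, any member called both ways and up to 2 called genes per list; other members were named to account for all. Genes fixed for naming but not annotated alone were not analysed here. No arrays were identical, and the method was tested on simulated data. Alternatives were quantile normalization, pseudocounts of 1 and 64, 2 other filters, a block by replicate number, 2 variance models, array weights, 18S covariates, other choices of probe set and leaving out arrays; the 3′ 18S control alone was added after seeing the data.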

Additional observations from a re-analysis of the deposited data

Results flagged for a closer look

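In groups of 4 arrays, 1 array can lie far from the other 3 on the log2 scale; chance alone gives this for about 1 in 20 groups, and 5 of the 56 groups of named members showed it. Psma3 read 21192 on male replicate 1, below the 24849 to 24973 of the other male arrays. Psmc3 read 14029 on male replicate 1, above 11659 to 11966. Psmd14 read 25412 on female replicate 4, below 29689 to 30031. Psmg2 read 8411 on female replicate 1, below 9334 to 9457, and 10036 on male replicate 4, above 8813 to 8905.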

How the results depend on the processing

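The 40 calls kept their sign when the same probe sets were refitted with another scale, filter, variance model, block or covariate or without an array, with 1 exception given next. The 27 probe sets lower and 13 higher in males became 0 and 0 with the 3′ 18S control as a covariate (median difference -0.11, all probe sets -0.07), chosen after seeing the data, where a dimmer Psmd11 probe set also took the opposite sign. The count higher became 5 with the mean 18S level. Without suffixes of shared probes the counts were 17 and 8 of 45 probe sets (median -0.094), beside 19.1% and 20% of all such probe sets (median 0.03), and when only each gene's brightest probe set was tested, over 11489 genes, 22 and 5 of 43 genes (median -0.21), beside 28.6% and 14.2% of all (median -0.12). The median was -0.077 with no filter, where that of all probe sets was 0.08, and -0.211 when each gene's probe sets were averaged, where that of all genes was -0.06. It ranged from -0.17 to -0.12 without each array in turn, nearest to 0 without male replicate 2. Quantile normalization, both pseudocounts, robust variance and array weights kept all 40 calls. The replicate number as a block left 25 lower and 12 higher and ended the calls of Psme4 and Psma3 among the named members (limma adjusted p = 0.0705 and 0.053). The numbers gave no sign of pairing the samples, since same-numbered arrays correlated at -0.13, -0.08, 0.04 and -0.03 in their deviations from the group means. Probe sets near background, such as those of Psmb8 and Psmb11, have no usable difference here.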
